A study of Ovis aries with 2 samples.

Results

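Messenger RNA of the biceps brachii, a muscle of the forelimb, was sequenced from 11-month-old ewes of 2 sheep breeds, with 1 library for Dorper (DP), a meat breed, and 1 library for small-tailed Han (SH), a Chinese breed. The labels name no treatment and no genetic change, and the number of animals behind each library is not given in the sources used here. Both libraries are labelled biceps brachii, and the methods of the study name the same muscle for both breeds, although the design text of the series mentions 2 muscles. The families described here are genes that the deposited tables list under a single cattle or human protein identifier in 2 or more rows. In 73 of these rows the identifier is followed by a suffix such as -D2, and the other rows carry the identifier alone. The suffix is taken here to number the copies, since the deposited notes do not define it. Of the 14290 genes listed with reads in DP or SH, 111 were such copies, and they made up 48 families. A further family with 3 listed copies, ENSBTAP00000012797, was left out by the same rule.

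Gene families arise when a stretch of DNA is duplicated, or when a processed messenger RNA is copied back into the genome. A copy may then keep its function, take on another pattern of expression, or decay into a pseudogene. Skeletal muscle is known for families of closely related contractile proteins, such as myosin heavy chains, in which different members prevail in different fibre types. Short reads that match several copies equally well cannot be assigned, so a count of uniquely aligned reads rests on the bases in which copies differ. The identifiers name the homologous protein in cattle or in human, and 0 of the 48 matched an entry of the sheep gene table given for the assembly ARS-UI_Ramb_v3.0. The families are therefore named by identifier, their function is not given, and the muscle label could not be checked against marker genes.

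The depth, as unique reads on genes, was 16656621 for DP and 20329585 for SH. The 111 copies held 27364 reads in DP and 35605 reads in SH, which is 0.164% and 0.175% of these totals. The median copy had 36 reads in DP and 36 reads in SH, against 93 and 108 reads over all listed genes. In RPKM, in which reads are divided by gene length and by the depth of the library, the median copy was at 1.54 in DP and 1.39 in SH, while the median over all listed genes was 4.64 and 4.46. Since each breed has 1 library, the differences given below have no replicate check, no test between breeds was made, and the values describe these 2 libraries. Intervals are exact 95% binomial intervals (Clopper-Pearson), which cover counting error only. In bulk muscle, fewer cells of a type and less RNA per cell cannot be told apart.

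Few copies were listed for each family. Copies without reads in either library are not listed, so the full size of the families is not known. A pair of copies was listed for 39 families, 3 copies for 4 families, 4 copies for 4 families and 5 copies for 1 family. Cattle identifiers named 31 families and human identifiers 17. In 10 families the row without a suffix was not listed, as in ENSBTAP00000050921, of which the copies numbered 6 and 14 were found. A suffix was carried by 313 rows of the tables, of which 73 belonged to these families, while 237 were the only listed row of their identifier. The copies of a family were similar in length. All copies had a length divisible by 3, as had the other listed genes, so the lengths are those of coding sequences, and they ranged from 210 to 5928 bases. The shortest copy of a family had a median of 96.1% of the length of the longest, with a minimum of 76.7%, and in 6 families all copies were equally long.

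Reads were gathered on few copies. The most-read family, ENSBTAP00000012835, held 43.4% of all the reads on the 111 copies in DP and 44.4% in SH. Its copy -D2 had 11867 reads in DP and 15777 reads in SH, while the row without a suffix had 15 and 31 reads. The copy -D2 thus held 99.9% of the reads of its family in DP (interval from 99.8% to 99.9%) and 99.8% in SH (interval from 99.7% to 99.9%). The RPKM of -D2 was 701 in DP and 763 in SH, giving a log2 ratio of SH over DP of 0.12. When this family was left aside, the leading copies of the other families together held 74.9% of their reads in DP and 77.5% in SH. The leading copy, also called the dominant copy here, is the copy with the most unique reads in a library.

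**Figure D1:**
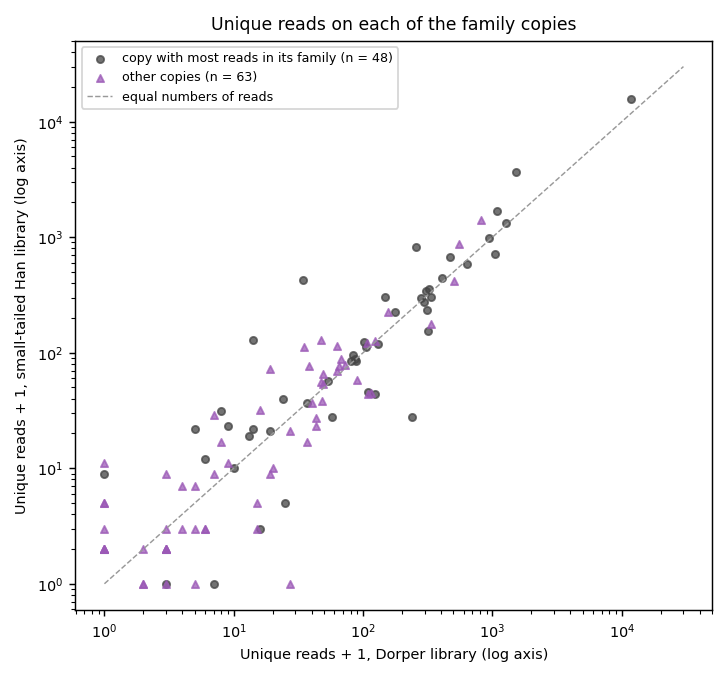
Unique reads, with 1 added, on each of the 111 copies in DP (horizontal, log axis) and SH (vertical, log axis), and the dashed line marks equal numbers. Circles are the 48 copies with the most reads in their families and triangles are the 63 other copies, and the copy with 11867 and 15777 reads lies far above the rest.

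At least 10 reads in each library were found for 42 families, which hold 98 of the copies, and the dominant copy was examined in these. The dominant copy was the same in DP and SH in 34 of the 42 families and differed in 8. Its share of the reads of the family had a median of 81.6% in DP (quartiles 63.8% and 91.7%) and 87.1% in SH (quartiles 57.95% and 94.96%). In the 34 families with 2 listed copies, the median share was 85.2% in DP and 89.97% in SH. The share was at least 90% in both libraries, for the same copy, in 10 families. It was under 60% in 5 families in DP and in 11 families in SH.

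A dominant copy was called clear in a library when the interval of its reads, taken against the second copy alone, lay above 50%. The dominant copy was clear in 37 of the 42 families in DP and in 34 in SH. In 29 families the same copy was clear in both, and in 3 families a clear copy in DP gave way to another clear copy in SH. In the remaining families the copies could not be ranked in at least 1 of the libraries at this depth, and in 3 of them the ranking was open in both.

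The row without a suffix was listed in 35 of the 42 families. It had the most reads of its family, with the libraries added up, in 16 of them, and a numbered copy had the most reads in 19. The leading copy was the longest in 18 of the 37 families with copies of unequal length. When the copies were ranked by RPKM, which corrects for length, the leading copy was that with the most reads in 42 of 42 families in DP and in 40 in SH. The number of families with the same leading copy was again 34, and 33 of the families were shared by the counts from reads and from RPKM.

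Among the most-read families, the split differed little between the libraries in some. ENSBTAP00000050921-D6 had 630 reads in DP and 587 in SH, and its partner -D14 had 72 and 77. The share of -D6 was 89.7% in DP (interval from 87.3% to 91.9%) and 88.4% in SH (interval from 85.7% to 90.7%). ENSBTAP00000001064 had 466 reads in DP and 669 in SH, and its copy -D2 had 37 and 76. The share of the row without a suffix was 92.6% and 89.8%, and the intervals overlapped.

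Other families of this depth shifted while the same copy stayed ahead. ENSBTAP00000006918 had 1523 reads in DP and 3677 in SH, and its copy -D2 had 155 and 226. The share of the leading copy was 90.8% in DP (interval from 89.3% to 92.1%) and 94.2% in SH (interval from 93.4% to 94.9%), so the intervals did not overlap. ENSP00000227758 had 938 reads in DP and 987 in SH, and its copy -D2 had 504 and 417. The share of the leading copy was 65.0% (interval from 62.5% to 67.5%) and 70.3% (interval from 67.8% to 72.7%). The shift was larger in ENSP00000358151, a family with 2 listed copies of 381 bases. Its row without a suffix had 1090 reads in DP and 1669 in SH, and -D4 had 337 and 175. The leading copy went from 76.4% of the reads in DP (interval from 74.1% to 78.6%) to 90.5% in SH (interval from 89.1% to 91.8%), as the partner copies differed in opposite directions.

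Over the 42 families, the share of the copy that led in DP differed between the libraries by a median of 6.04 percentage points, with quartiles of 3.09 and 12.6. The share was higher in SH in 21 families and lower in 21. The difference was under 5 points in 18 families and over 20 points in 6.

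**Figure D2:**
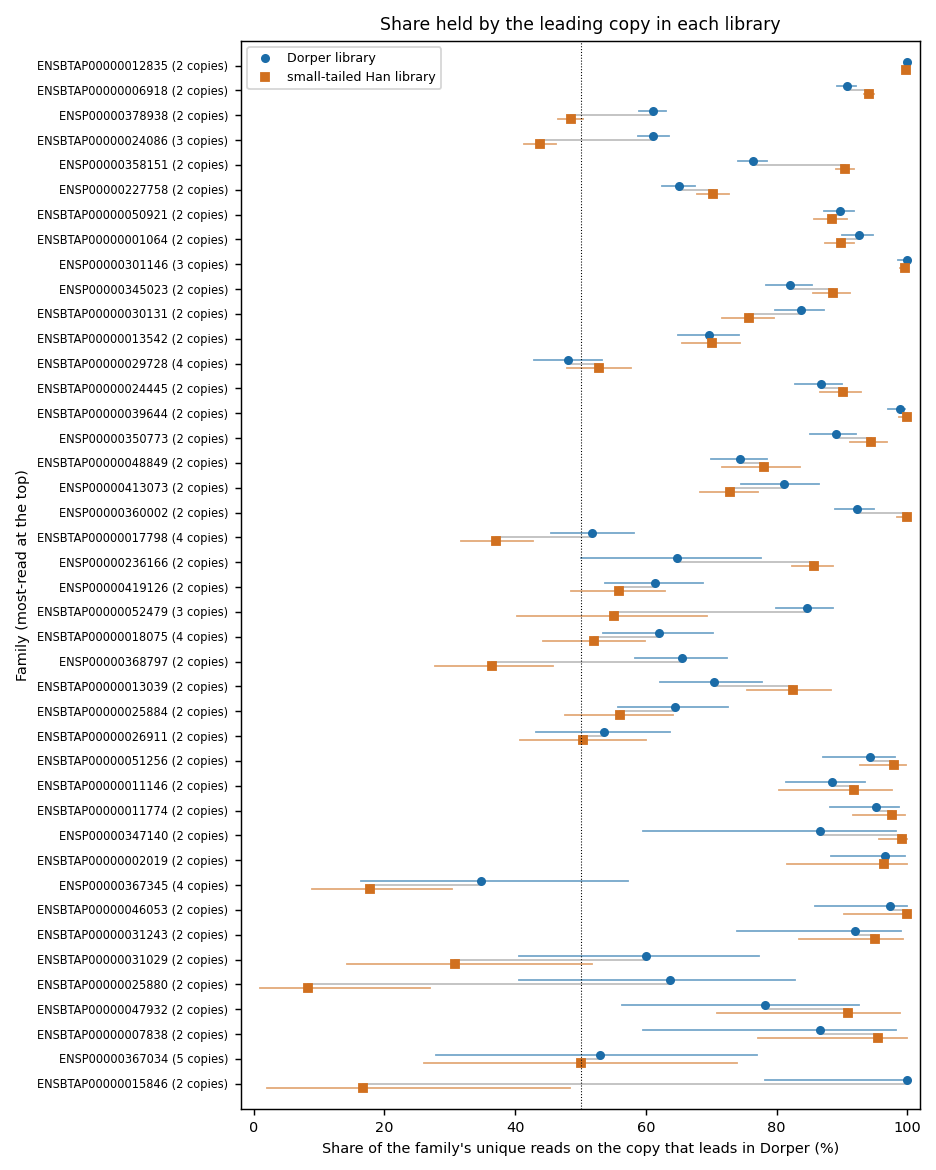
Share of the unique reads of each family (horizontal, %) that fell on the copy leading in DP, for the 42 families with at least 10 reads in each library, ordered by reads. Circles are DP, squares are SH, thin lines are exact 95% intervals and the dotted line marks 50%. In 8 families another copy led in SH, and the intervals widen towards the less-read families at the bottom.

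At least 50 reads in each library were present in 4 of the 8 families with different dominant copies. The deepest was ENSP00000378938. Its copy -D2, of 2010 bases, had 1277 reads in DP and 1314 in SH, while the row without a suffix, of 2622 bases, had 816 and 1396. The share of -D2 was 61.0% in DP (interval from 58.9% to 63.1%) and 48.5% in SH (interval from 46.6% to 50.4%). By reads the lead thus changed, although in SH the copies could not be ranked beyond counting error. Per length it did not change, with an RPKM of 38.1 for -D2 against 18.7 for the longer copy in DP and of 32.2 against 26.2 in SH.

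ENSBTAP00000024086 has 3 listed copies of nearly equal length. The row without a suffix had 1048 reads in DP and 709 in SH, -D6 had 551 and 866, and -D2 had 115 and 44. The row without a suffix held 61.1% of the reads in DP (interval from 58.8% to 63.5%) and 43.8% in SH (interval from 41.4% to 46.2%). The copy -D6 held 32.1% in DP and 53.5% in SH (interval from 51.0% to 55.9%). Each was clearly ahead in its library, and by RPKM the lead changed in the same way, from 62.0 against 32.6 in DP to 34.4 against 42.0 in SH.

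ENSP00000368797-D2 had 122 reads in DP and 43 in SH, whereas the row without a suffix had 64 and 75. The copy -D2 went from 65.6% of the reads (interval from 58.3% to 72.4%) to 36.4% (interval from 27.8% to 45.8%), a difference of -29.2 points, and the other copy was clearly ahead in SH. The family is the other one of at least 50 reads in each library in which both leads were clear. The RPKM of -D2 was 3.84 in DP and 1.11 in SH, and that of the row without a suffix was 2.10 and 2.02. In SH the row without a suffix was covered to 73.6%, where reads placed evenly would cover 97.7%. The copy -D2 was covered to 74.6% there, against 87.5% for evenly placed reads.

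In the family ENSBTAP00000017798, with 4 listed copies, the row without a suffix had 129 reads in DP and 118 in SH, and -D4 had 46 and 127. The copies -D2 and -D3 had 48 and 26 reads in DP and 53 and 20 in SH. The share of -D4 was 18.5% in DP (interval from 13.9% to 23.9%) and 39.9% in SH (interval from 34.5% to 45.6%). The row without a suffix held 51.8% in DP and 37.1% in SH, so in SH its lead was gone but -D4 was not clearly ahead.

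The other 4 families with a different dominant copy had few reads. ENSBTAP00000015846 had 0 reads in DP and 10 in SH on the row without a suffix, and 15 and 2 on -D2. Both leads were clear, and they rest on 15 reads in DP and 12 in SH. The 10 reads in SH covered 37.1% of the row without a suffix, where reads placed evenly would cover 85.8%. In DP the 15 reads covered 75.65% of -D2, where evenly placed reads would cover 94.9%. The intervals behind a clear lead take reads as independent. ENSBTAP00000025880 and ENSBTAP00000031029 were looked up after their values had been seen. The former had 8 reads in DP and 22 in SH on the row without a suffix and 14 and 2 on -D5, with a clear lead in SH. The latter had 12 and 18 on the row without a suffix and 18 and 8 on -D2, with no clear lead in either library. The fourth of these families, ENSP00000367345, has 4 listed copies. Its copy -D2 led in DP with 8 of 23 reads, and -D3 led in SH with 30 of 56 reads, clear in SH only.

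Besides ENSBTAP00000017798 and ENSP00000367345, 4 or more copies were listed for 3 families. In ENSBTAP00000029728 the copies kept the same full order in both libraries. Its copy -D5 had 174 reads in DP and 223 in SH, -D3 had 107 and 121, the row without a suffix had 62 and 69, and -D2 had 19 and 9. The leading copy held 48.1% in DP and 52.8% in SH. In ENSBTAP00000018075 the copy -D3 led with 85 reads in DP and 87 in SH, followed by the row without a suffix with 39 and 36. Its copies -D9 and -D14 had 7 and 6 reads in DP and 16 and 28 in SH, so the lower ranks were exchanged. ENSP00000367034 had 5 copies of 312 bases each and 17 reads in DP and 18 in SH in all, and its copy -D7 had 9 reads in each. Among the 5 families of 3 or more copies without ties in either library, the full order was the same in 2.

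The 6 families with fewer than 10 reads in a library comprised 13 copies and between 4 and 35 reads in the 2 libraries together. The 3 families of these that are named here were chosen after their values had been seen. In ENSP00000410257, with the most of these reads, the copies -D2 and -D3 were tied at 4 reads in DP and had 21 and 6 in SH. ENSP00000297012-D2 led in both libraries, with 24 reads in DP and 4 in SH. Both copies of ENSBTAP00000001891 had 0 reads in DP, with 8 and 4 in SH. These families were left out of the counts of dominant copies above.

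The level of single copies was then compared between the libraries by the log2 ratio of RPKM, SH over DP, with 0 replaced by 0.01. An absolute log2 ratio of at least 1 was met by 50 of the 111 copies (45.0%), with 30 copies lower in SH and 20 higher. Over all listed genes it was met by 28.4%, with 15% lower and 13.4% higher in SH. With a pseudocount of 0.1 added to the RPKM it was met by 38 copies (34.2%), 25 lower and 13 higher, against 21% of all listed genes, 11.5% lower and 9.43% higher. With a pseudocount of 1 it was met by 13 copies (11.7%), 10 lower and 3 higher, against 6.8% of all listed genes, 4.08% lower and 2.72% higher. With 0 replaced by 0.01, the share fell with depth, and the copies were less read than the average gene. Below 10 reads, with DP and SH added up, it was 84.0% of 25 copies, against 77.1% of all genes in that range. With 10 to 99 reads it was 51.5% of 33 copies against 39%. With at least 100 reads it was 12 of 53 copies, or 22.6%, against 11%. The median absolute log2 ratio was 0.85 for the copies and 0.48 for all genes without regard to depth, 1.17 and 0.77 at 10 to 99 reads, and 0.36 and 0.32 at 100 or more reads. These shares were not tested against each other, and copies of a family are not independent. An exact interval of the log2 ratio that left out 0 was found for 31 of the 53 copies (58.5%), against 62.1% of all genes of that depth.

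The 12 copies of at least 100 reads past the limit came from 11 families, since both copies of ENSBTAP00000048849 were among them. ENSBTAP00000048849 had 314 reads in DP and 153 in SH, giving a log2 ratio of -1.32 (interval from -1.61 to -1.04), and its copy -D3 had 108 and 43, with a log2 ratio of -1.62 (interval from -2.16 to -1.09). Its split was kept, with 74.4% of the reads on the leading copy in DP and 78.1% in SH. The largest increase among the 40 copies with at least 50 reads in both libraries was that of ENSP00000301146-D3, with 255 reads in DP and 823 in SH and a log2 ratio of 1.40 (interval from 1.20 to 1.61). The other listed copies of that family had 0 reads in DP and 2 and 1 in SH.

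ENSBTAP00000006918, described above, followed with a log2 ratio of 0.98, as its RPKM was 97.7 in DP and 193 in SH. ENSP00000413073 had 146 reads in DP and 301 in SH (0.76 as log2 ratio), ENSBTAP00000030131 had 62 and 113 (log2 ratio 0.58), and ENSP00000378938 had a log2 ratio of 0.49. In ENSP00000413073 the copy -D3 was higher in SH as well, with 34 reads in DP and 112 in SH, while the copy -D2 of ENSBTAP00000030131 had 320 and 354 reads and a log2 ratio of -0.14. The decreases next to ENSBTAP00000048849 were those of ENSP00000358151-D4, with a log2 ratio of -1.23, ENSP00000345023-D2, which had 88 reads in DP and 57 in SH (-0.91 as log2 ratio), ENSBTAP00000024086 with -0.85 and ENSP00000360002 with -0.69. The partner of ENSP00000345023-D2, the copy -D3, had 404 and 444 reads and a log2 ratio of -0.15.

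Larger ratios were found on copies with fewer than 50 reads in 1 library, which were chosen after their values had been seen. ENSP00000236166-D2 had 33 reads in DP and 426 in SH, giving a log2 ratio of 3.40 (interval from 2.89 to 3.96), and its partner -D3 had 18 and 71, a log2 ratio of 1.69 (interval from 0.93 to 2.53). Both copies were thus higher in SH, and the leading copy went from 64.7% to 85.7% of the reads. ENSBTAP00000052479-D7 had 238 reads in DP and 27 in SH, giving a log2 ratio of -3.43 (interval from -4.06 to -2.85), and its partner -D3 had 42 and 22. Its lead of 84.7% in DP was 55.1% in SH, where it was no longer clear. ENSP00000347140-D2 had 13 reads in DP and 127 in SH, giving a log2 ratio of 3.0 (interval from 2.18 to 3.95), next to 2 and 1 reads on the row without a suffix.

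Adding up the RPKM of the copies of a family left 14 of 48 families (29.2%) past the limit, 7 lower and 7 higher in SH, close to the 28.4% of all listed genes. Among the 32 families with at least 100 reads in the 2 libraries together, 6 were past it (18.8%), 3 lower and 3 higher, against 11% of all genes of that depth. These were ENSP00000301146, ENSP00000236166 and ENSP00000347140, which were higher in SH, and ENSBTAP00000048849, ENSBTAP00000052479 and ENSBTAP00000011146, which were lower. ENSBTAP00000011146, named after its values had been seen, had 122 reads on its copies together in DP and 49 in SH. The sums of ENSP00000358151, ENSBTAP00000017798 and ENSP00000378938 differed little, with log2 ratios of 0.08, 0.10 and 0.04, although their splits differed as given above.

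Within 18 families, 2 or more copies had at least 100 reads in the libraries together. The log2 ratios of these copies differed by a median of 0.60 within a family, with a range from 0.02 to 2.04. In 8 of the 18 families the copies lay on both sides of 0, and in 4 of these the exact intervals of copies on opposite sides both left out 0. In 5 families a copy was past the limit of 1 while another was not. These 5 were ENSBTAP00000024086, ENSP00000358151, ENSP00000413073, ENSBTAP00000017798 and ENSP00000368797. The least difference was that of ENSBTAP00000013542, named for it after the values had been seen, with 122 reads in DP and 126 in SH on the row without a suffix and 281 and 295 on -D2, which held 69.7% and 70.1% of the reads.

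For the 2 most-read copies of each family, the difference of their log2 ratios was computed from the reads with an exact conditional interval. The interval left out 0 in 17 of the 42 families (40.5%). With the libraries added up, the more-read copy had the higher ratio in 9 of them and the lower ratio in 8. The difference is given as the ratio of that copy minus that of the other. The difference was 1.56 in ENSP00000358151 (interval from 1.27 to 1.85), -1.22 in ENSBTAP00000024086 (interval from -1.43 to -1.01) and -0.73 in ENSP00000378938 (interval from -0.90 to -0.56). In ENSBTAP00000012835, where the second copy had few reads, it was -0.64 (interval from -1.63 to 0.30).

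**Figure D3:**
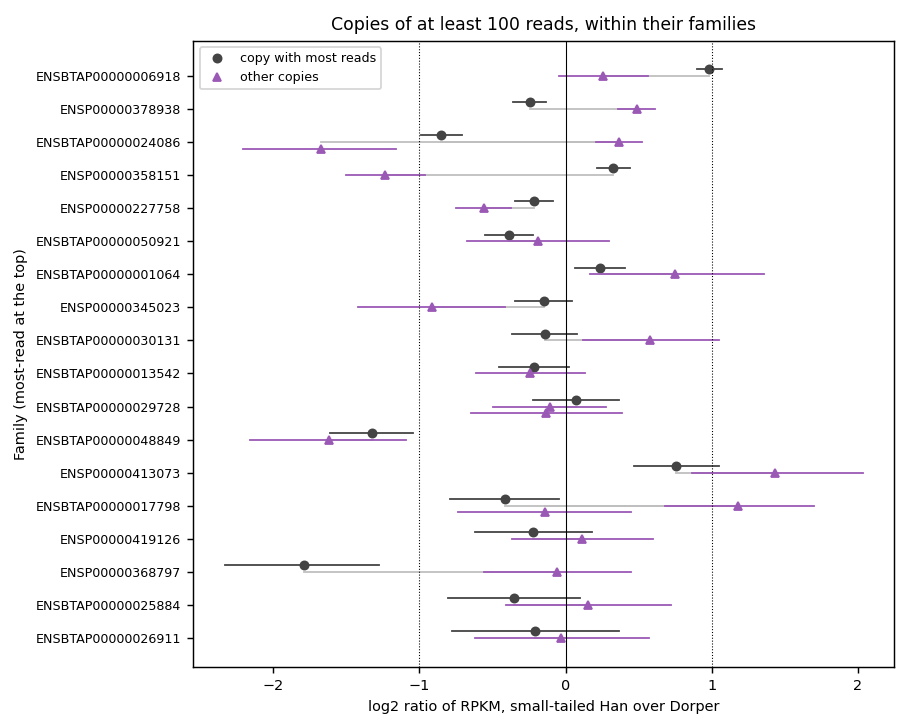
Log2 ratio of RPKM, SH over DP (horizontal), of the copies with at least 100 reads in the libraries together, in the 18 families that have 2 or more such copies. Circles are the copy with the most reads, triangles are the other copies, lines are exact 95% intervals and the dotted lines mark -1 and 1. In 8 families the copies lie on both sides of 0, with intervals clear of 0 on both sides in 4, and in ENSBTAP00000048849 both lie below -1.

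Reads in only 1 of the libraries were found on 16 of the 111 copies (14.4%), 7 in DP and 9 in SH, against 10.7% of all listed genes (5.09% in DP and 5.61% in SH). At most 3 reads were present on 9 of the 16. A count of 10 or more in 1 library and of 0 in the other was seen for 2 of the 111 copies (1.80%), against 0.63% of all listed genes. These shares were not matched for depth, and the copies were less read than the average gene. The first was ENSP00000360002-D3, with 26 reads in DP and 0 in SH. Its 26 reads covered 64.25% of the copy, where reads placed evenly would cover 97.7%. With 3 reads taken as a floor in SH, the copy was 10.6-fold lower in SH. The exact interval of the log2 ratio, which also covers the counting error of the 26 reads, reached up to -3.0. Its partner, the row without a suffix, had 310 and 234 reads. The copy -D3 thus held 7.74% of the reads of the family in DP (interval from 5.12% to 11.1%), and 0 of 234 reads in SH, which allows a share of up to 1.28% by a floor of 3 reads and of up to 1.56% by the exact interval. The second was ENSBTAP00000015846, with 0 reads in DP and 10 in SH. Against the same floor in DP it was 2.73-fold higher in SH. Its exact interval of the log2 ratio reached down to 0.88.

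The deposited coverage, the percentage of a gene covered by unique reads, showed on how much of a copy the counts rest. A single read covered 90 bases, within 1 base, in all 1024 rows with 1 read. From this length, the coverage expected from reads placed evenly along a copy was computed, a comparison added after the values had been seen. Among the copies with at least 50 reads in the library, the deposited coverage was lower than that by a median of 3.40 points in DP (46 copies) and 4.46 points in SH (49 copies), against 3.15 and 2.99 points over all listed genes of that depth. It was more than 20 points lower for 6 of 46 copies in DP (13.0%) and 8 of 49 in SH (16.3%), against 8.73% and 8.86% of all such genes.

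Of these copies, 5 were short by more than 20 points in both libraries. ENSBTAP00000050921-D14 had a coverage of 51.7% in DP and 41.0% in SH, from 72 and 77 reads, while its partner -D6 had 95.6% and 96.7%. ENSBTAP00000029728-D5, the leading copy of its family, was covered to 56.8% by 174 reads in DP and to 74.5% by 223 reads in SH, and -D3 of that family reached 88.7% with 107 reads in DP. The reads of this leading copy thus lay on a smaller part of it than those of the second copy. ENSBTAP00000018075-D3 was covered to 78.3% and 77.2%, and ENSP00000345023-D2 to 77.9% and 74.9%. The fifth was ENSBTAP00000025884-D2, named after its values had been seen, with 55.1% covered by 87 reads in DP and 51.7% by 83 in SH.

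Coverage also differed between the libraries on copies with fewer than 50 reads in SH, of which 2 were chosen after their values had been seen. In ENSBTAP00000024086 the copy -D2 was covered to 81.5% by 115 reads in DP and to 33.5% by 44 reads in SH, while the other copies of the family were covered to between 92.6% and 97.2%. ENSBTAP00000048849-D3, whose log2 ratio is given above, was covered to 90.1% by 108 reads in DP and to 56.8% by 43 reads in SH. The part of these differences in coverage in the shares given above was not tested.

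**Figure D4:**
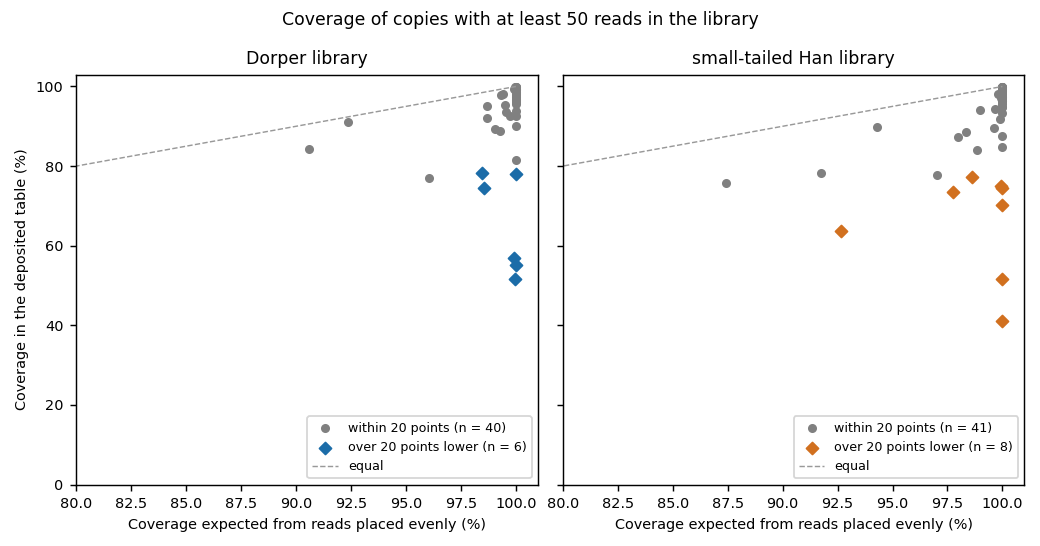
Deposited coverage (vertical, %) against the coverage expected from reads placed evenly (horizontal, %, drawn from 80), for copies with at least 50 reads in DP (left) and SH (right). Diamonds are the 6 copies in DP and 8 in SH that lie more than 20 points below the expected value, and the dashed line marks equality.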

How the data were processed

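The authors deposited 1 gene table for DP and 1 for SH, which list the genes that had reads. They give the unnormalized count of reads aligned to 1 position only, the length, the coverage in percent, and the RPKM, which is the authors' count divided by length and by the column total. Per the deposited notes, reads with adaptors, with over 5% unknown bases or of low quality had been removed. The aligner and gene set of these tables are not given in the sources used here. RPKM recomputed from the counts differed by at most 7.03e-08 of the value, and 0 genes had unequal lengths in the tables.

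The tables were joined by identifier with an absent gene as 0 reads, the suffix was stripped, and cattle and human identifiers in 2 or more rows were kept. Families were ranked by reads, at a minimum of 10 reads in each library, and by RPKM. Intervals are exact binomial (Clopper-Pearson) or, for the difference between 2 copies, exact conditional intervals of the odds ratio. Named families were the 8 most-read, those with another leading copy at 50 or more reads in each library, the 5 largest share changes and 5 smallest leading shares at 100 or more reads, families of 4 or more copies, copies at 0 in 1 library with at least 10 reads in the other, and the 5 largest increases and decreases at 50 or more reads in both. Exceptions are marked in the text. The members and lists were chosen with earlier results of these data known. Alternatives were another ranking, minimum, pseudocount or scaling, the latter by the TMM factors of edgeR 4.0.16. Calculations were tested on simulated pairs of copies with independent reads. The most-read families, splits among more copies and ranking by RPKM were not covered by the simulation. The tools were scipy 1.17.1, numpy 2.4.6, pandas 2.3.3 and matplotlib 3.10.9 in Python 3.11.15, and R 4.3.3.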

Additional observations from a re-analysis of the deposited data

How the results depend on the processing

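The number of families with the same leading copy, 34 of 42, was 21 of 25 at 100 or more reads in each library and 11 of 14 among human identifiers, where fewer families were counted. The number with a clear leading copy in both, 29, was 19 of 25 at 100 or more reads. The number of copies past the limit, 50, was 13 with a pseudocount of 1 (11.7%). It was 29 of 86 (33.7%) at 10 or more reads together and 12 of 53 (22.6%) at 100 or more. Over all listed genes, 6.8% were past it with a pseudocount of 1, 39% at 10 to 99 reads and 11% at 100 or more. The number of families, 14, was 7 with a pseudocount of 1 (14.6%) and 6 of 32 at 100 or more reads (18.8%). By construction, a pseudocount of 1 pulls the ratios of little-read copies towards 0. Copies read in 1 library, 16, were 2 at 10 or more reads. The other alternatives stayed within 1.5 times of these numbers, and centring on the median or TMM shifted log2 ratios by 0.075 and 0.069 and left 30 copies lower and 21 higher in SH. No paired analysis was possible because each breed has 1 library. Families with few reads have wide intervals, and replicate spread is unknown.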
